A study of Mus musculus with 9 samples.

Results

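The genes described here are 39 genes of the hepatic stellate cell, the liver's extracellular matrix and fibrosis, chosen by name. They were sorted into 8 groups by role, from collagens and stellate cell markers to TGF-beta signalling and matrix-degrading enzymes. On the arrays, 38 of the 39 had a probe set annotated to that gene alone, out of 18193 genes with such a probe set; fibrillin 1 (Fbn1) is not analysed here. The 38 genes had 86 probe sets, and each gene is given by the one with the highest mean over the arrays.

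Liver RNA came from KKAy mice, which become obese and diabetic and serve to study type 2 diabetes. It was read on Affymetrix arrays with a single colour, 9 in all, with 3 for each group. The first group received biomineralized insulin (BI) by intraperitoneal injection, in 100 µL of culture medium with 40 µg/mL insulin of which 11% was in the BI form. The second group received the same volume and insulin concentration without the modification. The third group is given as having no treatment, and its arrays are titled KKAy, although the protocol speaks of controls given medium alone, so an effect of the injection itself cannot be told apart from that of the insulin. The mice were 8 weeks old, and the labels give a chow with 34% fat for the arrays other than BI replicate 2. Whether each array holds RNA of 1 animal or of several is not stated, and the p-values cover just the spread among these arrays, which may be technical. The growth protocol of BI replicate 2 describes rats, and many, though not all, of the differences that involve this array are also given without it.

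Stellate cells are the pericytes of the liver sinusoid, and in the healthy liver they store vitamin A. After injury they can turn into contractile myofibroblasts that make fibrillar collagen, a change driven in large part by TGF-beta and platelet-derived growth factor, while metalloproteinases and their tissue inhibitors (TIMPs) set how fast matrix is removed. A fatty, insulin-resistant liver such as that of an obese diabetic mouse is a setting in which this change is often studied.

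None of the 38 genes passed the test in any of the 3 comparisons (limma, Benjamini-Hochberg adjusted p under 0.05 over 45037 probe sets). Across all genes, 0.011% passed in BI against untreated livers (0.0111% of probe sets, or 5, and 0 without BI replicate 2), and 0% passed both in insulin against untreated and in BI against insulin livers. The lowest adjusted p among these genes was 0.9991 for BI against untreated livers, and 0.9999 in each of the other comparisons. At an unadjusted p under 0.05, none of them stood out in BI against untreated livers, where 3.9% of all genes did. Only Ctgf did in insulin against untreated livers (3.87% of all genes), and none did in BI against insulin livers (3.44%). With 3 arrays a group the precision is limited. For these genes the half-width of a 95% interval had a median of 0.74 on the log2 scale, and it ran between 0.38 for Tgfbr1 and 2.04 for Loxl1.

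Seen as a group, the genes lay slightly lower in BI livers than in insulin livers, by less than the spread between replicate arrays. In that comparison 26 of 38 differences were negative, against 54.3% of all genes, and the median difference was -0.21 on the log2 scale, against -0.03 over all genes. With each gene's mean taken out, the median of the 38 genes was -0.21, -0.09 and 0.09 on the BI arrays and 0.16, 0.31 and -0.15 on the insulin arrays. The groups overlapped, and the SD of that median between replicates was 0.24. In BI against untreated livers 21 of 38 differences were negative (49.9% of all genes) with a median of -0.05. Insulin against untreated livers gave 23 of 38 positive differences (53.7% of all genes) and a median of 0.04. The median of BI against untreated livers changed sign, to 0.09, without untreated replicate 3, and that of insulin against untreated livers was 0.22 without it and -0.05 without untreated replicate 2. Without BI replicate 2 the medians were -0.12 for BI against insulin livers and -0.01 for BI against untreated livers.

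Few genes separated the groups on every array. BI and untreated livers did not overlap for 3 of 38 genes (9.36% of all genes): Lrat, which was higher in BI livers, and Col4a1 and Col5a2, which were lower. Insulin and untreated livers did not overlap for Ctgf and Lox, both higher in insulin livers, which is 2 of 38 genes (9.23% of all genes, with 5.74% higher). BI and insulin livers did not overlap for Ctgf and Col4a1, both lower in BI livers, again 2 of 38 genes (9.88% of all genes, with 5.68% lower). Over both directions these shares are below the background in each comparison.

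**Figure D1:**
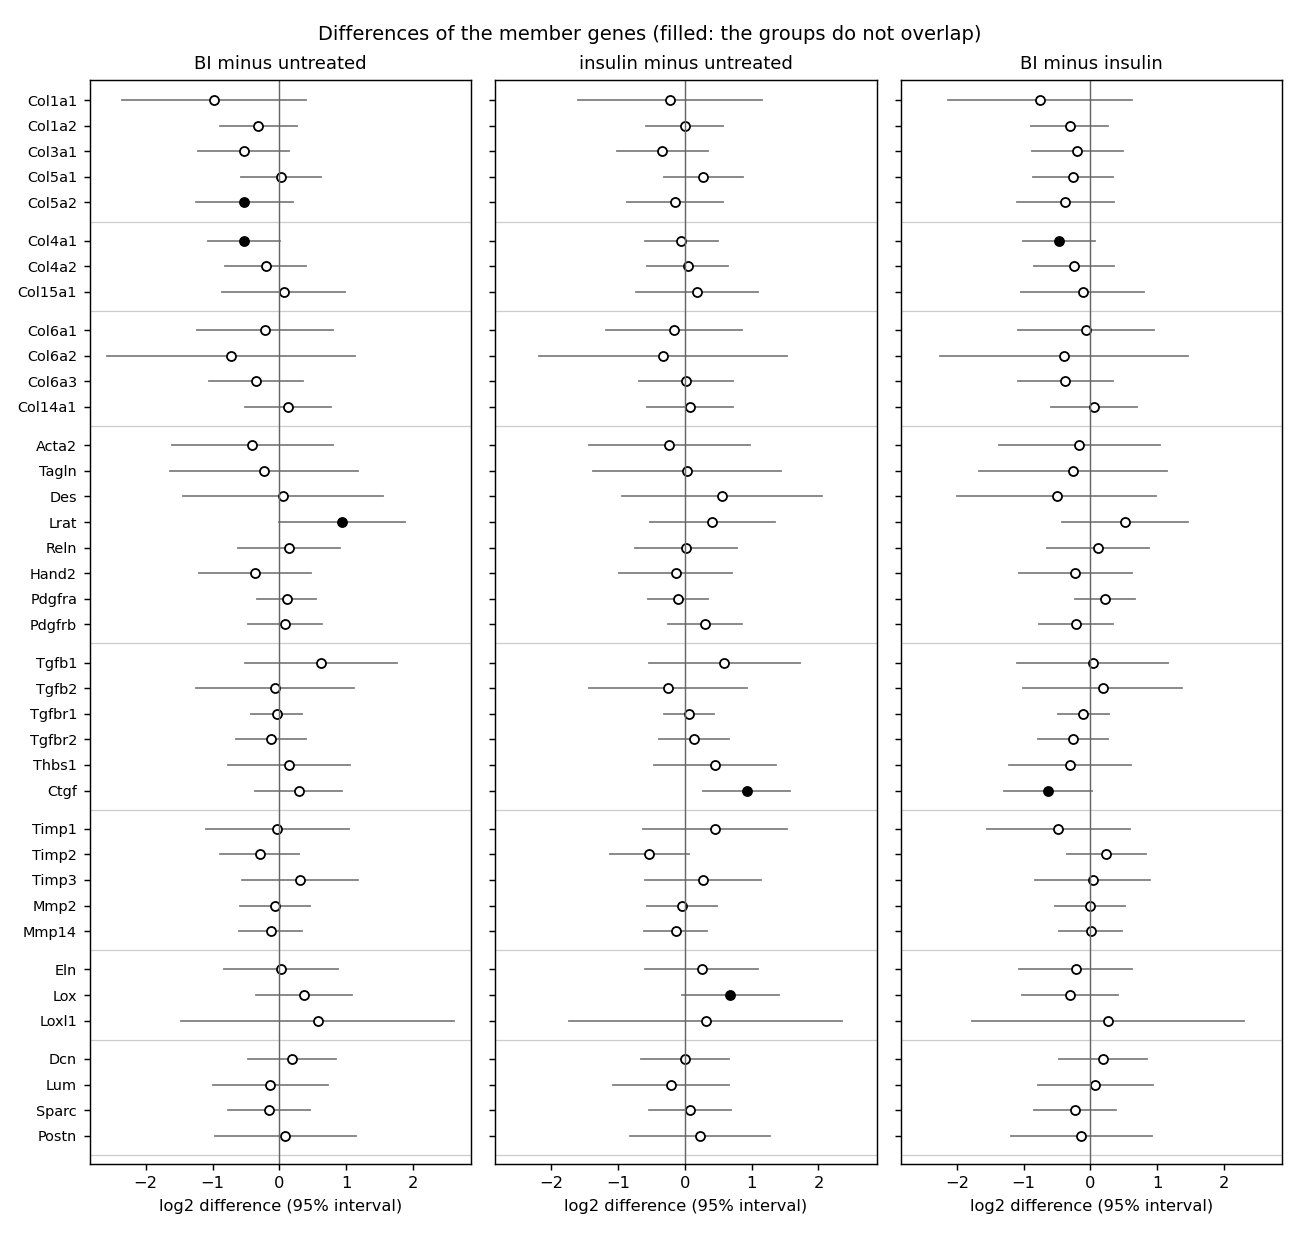
Difference of each of the 38 genes on the log2 scale (horizontal axis) in BI against untreated, insulin against untreated and BI against insulin livers, with 95% intervals from the limma fit; genes run down the page by role, and filled points mark genes whose 3 arrays of one group lie all above or all below those of the other. The interval of Ctgf in insulin against untreated livers, 0.27 to 1.58, is the only one of these that leaves out 0 before adjustment.

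The arrays themselves differed. Untreated replicate 3 held the highest value of 14 of the 38 genes (12.4% of all genes had theirs there) and the lowest of none. Untreated replicates 1 and 2 held the lowest value of 10 and 8 of them (12.6% and 15.6% of all genes had theirs there). RNA quality, read as the Gapdh signal at the 3' end minus that at the 5' end (log2), came to 0.26 to 0.42 in BI livers, 0.48 to 0.55 in insulin livers and 0.28 to 0.65 in untreated livers, with the top value on untreated replicate 3. For Actb the same quantity was larger, 1.96 to 2.09 in BI livers, 1.99 to 2.23 in insulin livers and 1.80 to 2.11 in untreated livers, with the top value on insulin replicate 1. Array medians lay between 6.11 and 6.30. Same-group arrays correlated at 0.911 to 0.920 over all probe sets, and arrays of different groups at 0.909 to 0.921.

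**Figure D2:**
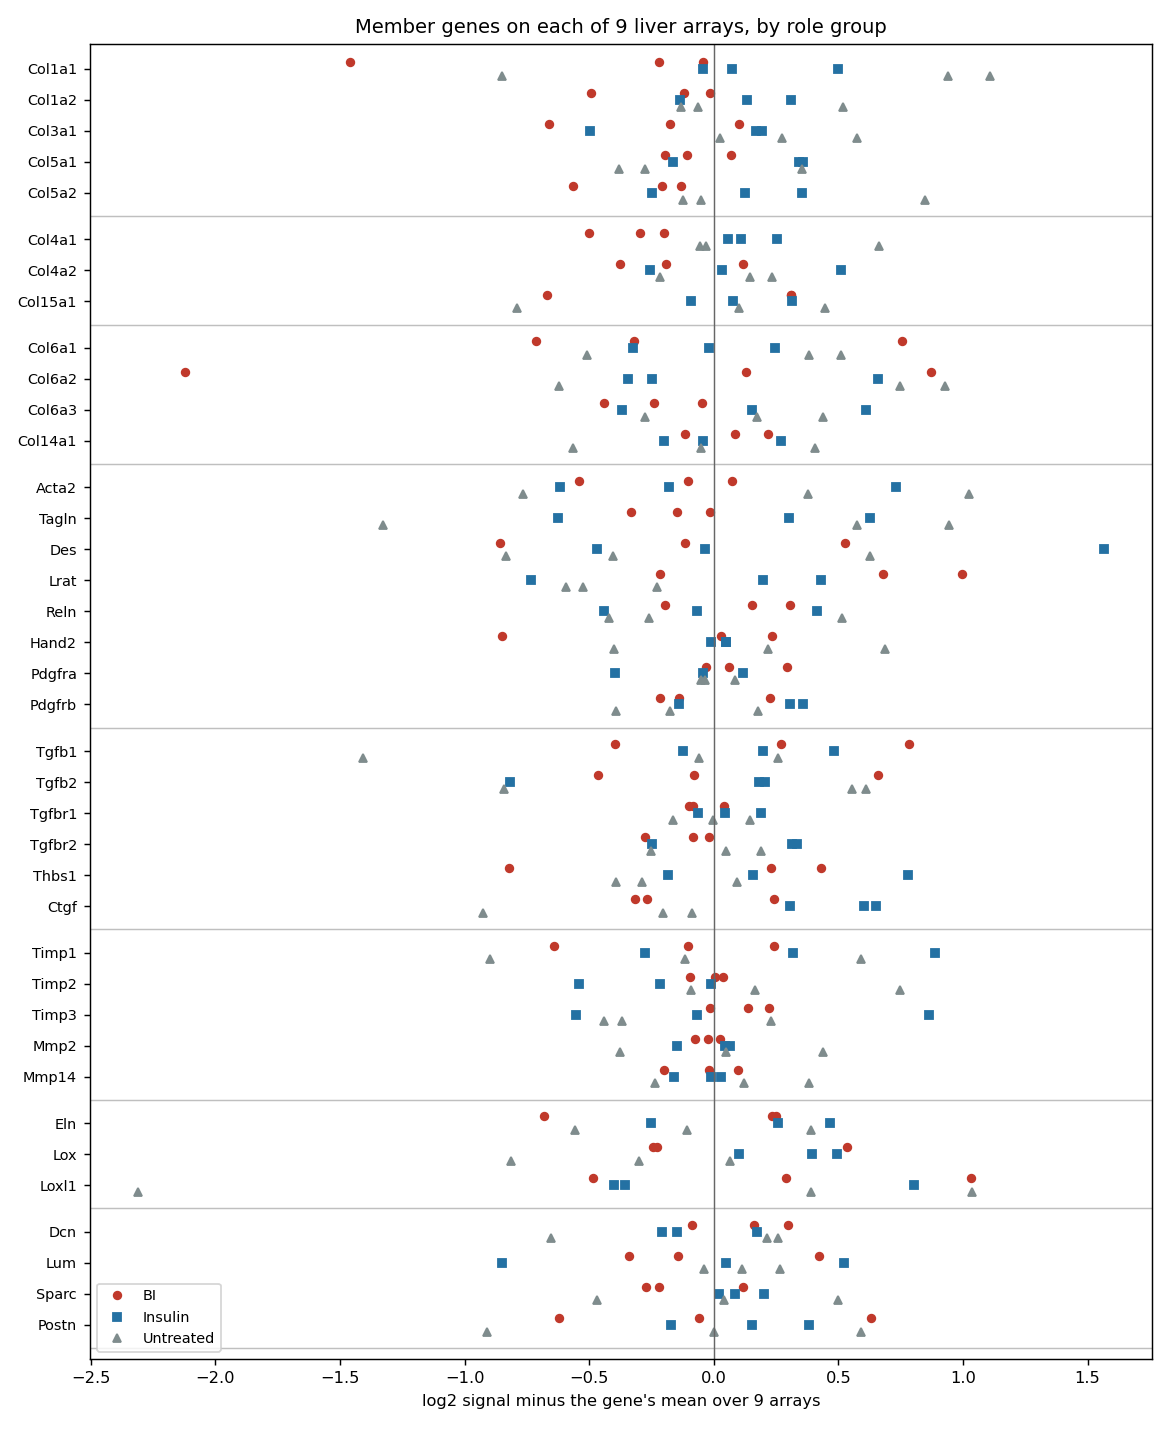
Signal of each of the 38 genes on each array, on the log2 scale after subtracting that gene's mean over the 9 arrays (horizontal axis), with BI, insulin and untreated arrays as circles, squares and triangles; horizontal lines part the role groups. The groups overlap for most genes, and the spread within the untreated group is wide for Col1a1, Tagln, Tgfb1 and Loxl1.

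Fibrillar collagens, which form the rope-like fibres of scar tissue, lay lower in BI livers for most of the group. In BI livers 4 of 5 were lower than in untreated livers (median difference -0.53 on the log2 scale) and 5 of 5 were lower than in insulin livers (median -0.31), although none passed the test. Insulin against untreated livers gave a median of -0.15, with 4 of 5 lower, and 0.17 without untreated replicate 3. The median of BI against untreated livers kept its sign in 16 of 16 other settings, and it came to -0.21 without untreated replicate 3 and -0.53 without BI replicate 2.

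Col1a1, which encodes the alpha-1 chain of type I collagen and is a standard readout of fibrosis, had log2 signals of 5.66, 4.42 and 5.83 in BI livers, 5.83, 6.38 and 5.95 in insulin livers, and 6.82, 5.03 and 6.99 in untreated livers. BI replicate 2 was the lowest array and untreated replicate 2 the next, so the groups overlapped. BI livers differed from untreated livers by -0.97 ± 0.59 (log2, SE, n = 3 each; 95% interval -2.35 to 0.40) and from insulin livers by -0.75 ± 0.59, and without BI replicate 2 these differences were -0.53 and -0.31. The Col1a1 probe set used had a mean level of 5.88, below every array median. The dimmer of its probe sets (mean level 3.54) gave 0.40 ± 1.13 for BI against untreated livers, opposite in sign. Its partner chain Col1a2 had 8.61, 9.09 and 8.98 in BI livers, 9.23, 9.41 and 8.96 in insulin livers, and 9.04, 8.97 and 9.62 in untreated livers. The 3 groups overlapped, and the difference of BI from untreated livers was -0.32 ± 0.25.

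Type III collagen, from Col3a1, accompanies type I in early scar. Col3a1 had 9.82, 10.31 and 10.58 in BI livers, 10.67, 10.65 and 9.98 in insulin livers, and 11.05, 10.51 and 10.75 in untreated livers. The highest BI array lay just above the lowest untreated array. Differences were -0.53 ± 0.29 for BI against untreated livers (95% interval -1.22 to 0.15), -0.34 ± 0.29 for insulin against untreated livers and -0.20 ± 0.29 for BI against insulin livers. Col5a2, a chain of the type V collagen that starts fibrils, had 6.67, 7.03 and 7.10 in BI livers, 7.59, 7.36 and 6.99 in insulin livers, and 7.11, 7.18 and 8.08 in untreated livers. The highest BI array, at 7.10, and the lowest untreated array, at 7.11, were nearly level, so this separation is narrow. Its difference of BI from untreated livers was -0.53 ± 0.31, and -0.21 without untreated replicate 3. The companion chain Col5a1 averaged 7.20 ± 0.13 in BI livers, 7.45 ± 0.30 in insulin livers and 7.17 ± 0.40 in untreated livers (SD, n = 3 each).

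The sequence just upstream of 2 of these collagen genes is shown because type I and III collagen are the main fibres of scar, and their genes are textbook targets of TGF-beta signalling through SMAD proteins. Each line is the 250 bases before the annotated start, on the gene's strand, from RefSeq in build GRCm38.p6: Col1a2 at chr6:4505368-4505617 (plus strand) and Col3a1 at chr1:45311288-45311537 (plus strand). Capitals mark the SMAD motif CAGAC on either strand (GTCTG as read on the strand printed) and, in Col3a1, the letters TATAAA.
Col1a2: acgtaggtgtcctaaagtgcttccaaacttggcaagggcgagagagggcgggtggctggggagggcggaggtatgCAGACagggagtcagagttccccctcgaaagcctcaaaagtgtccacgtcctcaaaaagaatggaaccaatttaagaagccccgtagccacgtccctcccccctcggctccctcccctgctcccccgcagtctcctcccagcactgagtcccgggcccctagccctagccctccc
Col3a1: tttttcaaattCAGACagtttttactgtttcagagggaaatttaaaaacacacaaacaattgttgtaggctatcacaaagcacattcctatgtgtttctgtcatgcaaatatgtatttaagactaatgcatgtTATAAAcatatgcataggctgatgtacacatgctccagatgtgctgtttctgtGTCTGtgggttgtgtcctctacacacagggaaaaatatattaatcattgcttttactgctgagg
CAGAC on either strand was found in 42.2% of 32851 RefSeq windows of this length, and TATAAA in 12.4%. Of the 26 genes of the group with a window in that table, 13 held CAGAC and 3 held TATAAA (Col3a1, Postn and Tgfb2). The motifs do not overlap each other in these windows, and a match describes the letters and not a bound site.

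Basement membrane collagens line the sinusoid and vessels. Type IV collagen, from Col4a1 and Col4a2, is their network-forming member. Col4a1 had 9.59, 9.89 and 9.79 in BI livers, 10.34, 10.20 and 10.15 in insulin livers, and 10.03, 10.06 and 10.75 in untreated livers. Each BI array lay below each array of the other groups. The difference was -0.52 ± 0.23 against untreated livers (0.696-fold, 95% interval -1.06 to 0.02, limma unadjusted p = 0.056, adjusted p = 0.9991) and -0.47 ± 0.23 against insulin livers (0.721-fold, unadjusted p = 0.0783, adjusted p = 0.9999). Without BI replicate 2 these were -0.59 and -0.54, and without untreated replicate 3 the first was -0.29. A second Col4a1 probe set (mean level 8.70) gave -0.32 ± 0.22 and -0.30 ± 0.22 for the same comparisons. Col4a2 averaged 9.19 ± 0.25 in BI livers, 9.44 ± 0.39 in insulin livers and 9.40 ± 0.24 in untreated livers (SD, n = 3 each). Its difference of BI from untreated livers was -0.21 ± 0.26, and -0.34 without BI replicate 2. Col15a1, of a collagen that anchors basement membranes, averaged 7.21 ± 0.56, 7.33 ± 0.20 and 7.15 ± 0.64 in BI, insulin and untreated livers.

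Col4a1 and Col4a2 lie head to head and are transcribed in opposite directions. In RefSeq the first 22 bases of both genes are the same stretch, chr8:11312805-11312826 in GRCm38.p6, shown on the plus strand, which is the strand of Col4a2.
Col4a1 and Col4a2 shared start: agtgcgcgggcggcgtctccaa
This stretch was chosen for display after the values were seen. Across the 9 arrays the pair had a Pearson r of 0.629 (exact permutation test, two-sided, adjusted p = 0.147 over 6 gene pairs) and a Spearman rho of 0.55 (adjusted p = 0.199), so a relation was not shown. Without untreated replicate 3 and BI replicate 1, the arrays farthest from the Col4a1 median, r was 0.456.

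Type VI collagen forms beaded filaments around cells, and type XIV, from Col14a1, decorates fibrils. Medians of these 4 genes were -0.29 for BI against untreated livers, -0.07 for insulin against untreated livers and -0.22 for BI against insulin livers. Both BI medians turned positive without BI replicate 2 (0.07 and 0.11). That array held 4.54 for Col6a2, where the other BI arrays had 6.79 and 7.53, the insulin arrays 6.41, 7.32 and 6.31, and the untreated arrays 7.40, 6.04 and 7.58. Col6a1 had 6.60, 6.21 and 7.67 in BI livers, 6.90, 7.16 and 6.60 in insulin livers, and 7.43, 6.41 and 7.30 in untreated livers. The spread within each group was larger than the differences between groups, which lay between -0.22 and -0.06 for Col6a1. Without BI replicate 2, BI against untreated livers gave 0.15 for Col6a2, in place of -0.72, and 0.09 for Col6a1, in place of -0.22.

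The same arrays were high and low for both chains. Col6a1 and Col6a2, which are neighbouring genes whose chains join in one protein, correlated across the 9 arrays with r = 0.879 (exact permutation p = 0.000645, adjusted p = 0.00387 over 6 pairs) and rho = 0.933 (adjusted p = 0.0045). With each group's mean taken out, r was 0.882, and it was 0.901 without BI replicates 2 and 3, the arrays farthest from the Col6a1 median. Averaging the probe sets of each gene in place of taking the brightest gave r = 0.628 (exact permutation, adjusted p = 0.100), so the relation rests on the choice of probe set. Col6a3 averaged 8.01 ± 0.20 in BI livers, 8.38 ± 0.49 in insulin livers and 8.36 ± 0.36 in untreated livers. Col14a1 averaged 10.27 ± 0.17, 10.22 ± 0.24 and 10.14 ± 0.49 in BI, insulin and untreated livers (SD, n = 3 each).

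**Figure D3:**
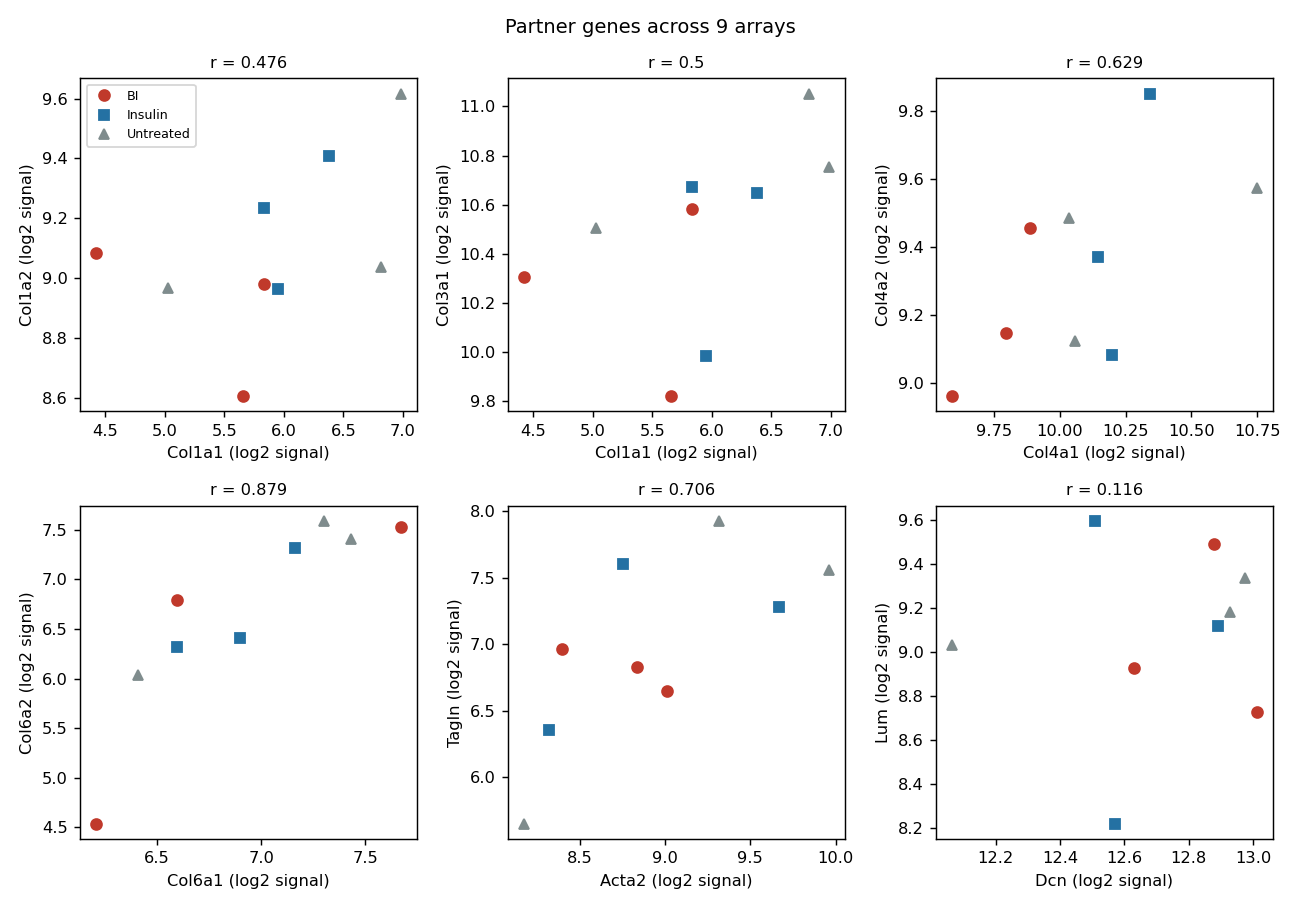
Log2 signals of 6 pairs of partner genes against each other, one point per array, with BI, insulin and untreated arrays as circles, squares and triangles and Pearson's r above each panel. Col6a1 and Col6a2 lie close to a line (r = 0.879), while Dcn and Lum do not (r = 0.116).

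The other 4 pairs compared gave no relation past the threshold. Acta2 and Tagln had r = 0.706 (exact permutation, adjusted p = 0.0831) and rho = 0.650 (adjusted p = 0.133), with r = 0.709 after removing group means and 0.762 without untreated replicate 1 and insulin replicate 2. Col1a1 gave r = 0.476 with Col1a2 and 0.50 with Col3a1 (exact permutation, adjusted p = 0.227 for each), with rho of 0.450 (adjusted p = 0.276) and 0.667 (adjusted p = 0.133). Without BI replicate 2 and untreated replicate 3 these r values were 0.393 and 0.489. Dcn and Lum, proteoglycans that bind collagen fibrils, gave r = 0.116 and rho = -0.033 (exact permutation, adjusted p = 0.689 and 0.948), and r = 0.602 without untreated replicate 1 and insulin replicate 2.

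Stellate cell identity and contractile genes had a mean signal above every array median for 7 of 8 genes, the exception being Des. Their median difference was 0.07 for BI against untreated livers, 0.03 for insulin against untreated livers and -0.19 for BI against insulin livers, and the BI medians were -0.01 and 0.05 without BI replicate 2. In whole liver, fewer cells of a type and less RNA per cell cannot be told apart.

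Lrat, the enzyme that esterifies retinol for storage and a widely used stellate cell marker, had 9.47, 10.37 and 10.68 in BI livers, 9.89, 10.12 and 8.95 in insulin livers, and 9.10, 9.16 and 9.46 in untreated livers. The lowest BI array, at 9.47, was just above the highest untreated array, at 9.46. BI livers differed from untreated livers by 0.93 ± 0.40 (1.91-fold, 95% interval -0.01 to 1.88, limma unadjusted p = 0.0514, adjusted p = 0.9991). A second Lrat probe set (mean level 8.04) gave 1.20 ± 0.45 (unadjusted p = 0.0308, adjusted p = 0.9991). Insulin livers differed from untreated livers by 0.41 ± 0.40 and BI from insulin livers by 0.52 ± 0.40. The first difference was 0.84 without BI replicate 2, and it lay between 0.68 and 1.29 over the 16 other settings.

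Other markers of the resting stellate cell differed less than Lrat between BI and untreated livers. Reln, a secreted glycoprotein made in liver by stellate cells, had 10.75, 11.10 and 11.25 in BI livers, 11.36, 10.50 and 10.88 in insulin livers, and 10.52, 10.68 and 11.46 in untreated livers, and the groups overlapped throughout (0.14 ± 0.33 for BI against untreated livers). Hand2, a transcription factor of quiescent stellate cells, had 7.28, 6.40 and 7.49 in BI livers, 7.30, 7.30 and 7.24 in insulin livers, and 7.47, 6.85 and 7.94 in untreated livers. Its difference was -0.36 ± 0.36 for BI against untreated livers (-0.04 without BI replicate 2) and -0.14 ± 0.36 for insulin against untreated livers. Des, the muscle-type intermediate filament of rodent stellate cells, had 5.30, 5.94 and 4.56 in BI livers, 4.95, 5.38 and 6.98 in insulin livers, and 6.04, 5.01 and 4.58 in untreated livers. Those signals were below the array median on all but 1 array, insulin replicate 3, and showed no order by group.

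Outside the 39 genes, 12 further stellate cell markers were measured, Colec11, Hgf and Tcf21 among them. Their median difference was 0.21 for BI against untreated livers (9 of 12 higher), 0.24 for insulin against untreated livers (9 of 12 higher) and -0.01 for BI against insulin livers (6 of 12 higher), and none of the 12 passed the test. Nes, nestin, an intermediate filament of activated stellate cells, had 7.39, 7.08 and 7.65 in BI livers, 7.65, 7.87 and 8.14 in insulin livers, and 7.12, 7.07 and 7.28 in untreated livers. Insulin livers did not overlap the other groups for Nes, but the lowest insulin array (7.6527) and the highest BI array (7.6524) were nearly level. Insulin livers differed from untreated livers by 0.74 ± 0.21 (limma unadjusted p = 0.00967, adjusted p = 0.9999). BI livers differed from insulin livers by -0.51 ± 0.21 (unadjusted p = 0.0451, adjusted p = 0.9999). Insulin and untreated livers also did not overlap for Ngfr, a neurotrophin receptor (0.29 ± 0.49), with the lowest insulin array at 7.36 and the highest untreated array at 7.34. That made 2 of 12 markers in this comparison (9.23% of all genes) and 1 of 12 in BI against insulin livers (9.88%). No marker of the list was at 0 on any array. Summed over the list, log2 levels were 96.2 to 100.7 in BI livers, 99.2 to 100.6 in insulin livers and 93.9 to 100.5 in untreated livers.

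Platelet-derived growth factor receptors drive stellate cell growth and migration. Pdgfrb had 8.54, 8.62 and 8.99 in BI livers, 9.11, 9.06 and 8.62 in insulin livers, and 8.58, 8.37 and 8.94 in untreated livers. Pdgfra, also a marker of fibroblasts, had 8.22, 8.45 and 8.12 in BI livers, 7.76, 8.27 and 8.11 in insulin livers, and 8.10, 8.24 and 8.12 in untreated livers. The groups overlapped for both, with differences of 0.30 ± 0.24 for Pdgfrb in insulin against untreated livers and 0.22 ± 0.19 for Pdgfra in BI against insulin livers (0.12 without BI replicate 2). For BI against untreated livers this Pdgfra probe set gave 0.11, and the average of the gene's probe sets gave 1.10. The dimmer ones (mean levels 3.17 and 4.74) gave 2.62 ± 0.95 (limma unadjusted p = 0.0265, adjusted p = 0.9991) and 0.59 ± 0.93.

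Acta2 encodes smooth muscle actin, the usual sign that a stellate cell has become a myofibroblast, and is also made by vessel walls. It had 8.84, 8.40 and 9.01 in BI livers, 8.76, 9.67 and 8.32 in insulin livers, and 9.96, 8.17 and 9.32 in untreated livers. The untreated group held both the highest and the lowest array, and BI livers differed from it by -0.40 ± 0.52 (95% interval -1.61 to 0.80), and by -0.23 without BI replicate 2. Tagln, another contractile protein, averaged 6.81 ± 0.16 in BI livers, 7.08 ± 0.65 in insulin livers and 7.04 ± 1.22 in untreated livers (SD, n = 3 each). Of 5 other vascular smooth muscle genes, 4 were lower in BI than in untreated livers (median -0.45, with 49.9% of all genes lower). In insulin against untreated livers 5 were lower (median -0.79), where 53.7% of all genes were higher. The half-widths of their 95% intervals were 1.93 to 2.89. The mean log2 level of the list was 4.09, 3.79 and 4.53 in BI, insulin and untreated livers, below every array median, and lowest on insulin replicate 3 (2.58). Summed over these genes, log2 levels were 18.9 to 22.3 in BI livers, 12.9 to 22.5 in insulin livers and 18.6 to 26.5 in untreated livers. None was listed at 0, and their part in the Acta2 and Tagln values was not tested.

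The Acta2 sequence upstream of the start is shown because its textbook control runs through CArG boxes, the sites of serum response factor. It covers chr19:34255374-34255623 (minus strand) in GRCm38.p6, from RefSeq, as 250 bases read on the gene's strand, with capitals marking CArG-like matches that hold at most 1 C or G among the inner bases.
Acta2: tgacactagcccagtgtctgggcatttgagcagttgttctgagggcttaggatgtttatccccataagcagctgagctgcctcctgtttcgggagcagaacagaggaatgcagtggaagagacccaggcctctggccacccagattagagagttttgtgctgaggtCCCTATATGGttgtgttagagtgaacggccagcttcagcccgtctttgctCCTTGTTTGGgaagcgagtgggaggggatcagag
The matches are CCCTATATGG at -84 to -75 and CCTTGTTTGG at -34 to -25, counted from the start with -1 as the base just before it. A CArG box with no C or G inside was found in 1.47% of the 32851 windows and in none of the 26 genes of the group with a window. The looser form, chosen after the strict form gave no match, was found in 8.59% of all windows and in 7 of the 26 genes, Lrat and Timp3 among them. The motif reads the same on both strands.

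TGF-beta signalling held the gene with the smallest unadjusted p, Ctgf. The median of its 6 genes was 0.29 for insulin against untreated livers (5 of 6 higher, counting a Tgfb1 probe set that another contradicts), 0.05 for BI against untreated livers and -0.18 for BI against insulin livers. With probe sets averaged per gene the first median was 0.03. Ctgf (now named Ccn2) encodes connective tissue growth factor, a matricellular protein induced by TGF-beta and by the YAP pathway. Its signals were 9.37, 9.32 and 9.88 in BI livers, 10.24, 10.29 and 9.95 in insulin livers, and 8.71, 9.44 and 9.55 in untreated livers. Each insulin array lay above each array of the other groups.

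Ctgf differed between insulin and untreated livers by 0.93 ± 0.28 (1.90-fold, 95% interval 0.27 to 1.58, limma unadjusted p = 0.0117, adjusted p = 0.9999). BI livers differed from insulin livers by -0.64 ± 0.28 (0.644-fold, unadjusted p = 0.0549, adjusted p = 0.9999) and from untreated livers by 0.29 ± 0.28 (95% interval -0.36 to 0.94). The comparison of insulin with untreated livers gave 0.67 to 1.08 over the 16 other settings, lowest without untreated replicate 1. Without BI replicate 2, BI against insulin livers gave -0.53. Cyr61, another target of the YAP pathway and a relative of Ctgf, had 8.29, 8.20 and 8.46 in BI livers, 8.01, 8.22 and 7.13 in insulin livers, and 7.98, 8.77 and 7.99 in untreated livers. Its difference of insulin from untreated livers was -0.46 ± 0.34, and insulin replicate 3 alone lay below the untreated arrays.

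The ligand Tgfb1 had 5.35, 6.02 and 6.53 in BI livers, 5.63, 6.23 and 5.95 in insulin livers, and 4.34, 5.69 and 6.01 in untreated livers. Untreated replicate 1 was the lowest array, and the groups overlapped, with differences of 0.62 ± 0.49 for BI and 0.59 ± 0.49 for insulin against untreated livers. A dimmer Tgfb1 probe set (mean level 4.92) gave -1.45 ± 0.65 for BI and -1.92 ± 0.65 for insulin against untreated livers (unadjusted p = 0.0587 and 0.0199, adjusted p = 0.9991 and 0.9999). The probe sets thus disagree in sign, their means over the 9 arrays lie below each array's median, and no direction is given for Tgfb1.

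The receptors Tgfbr1 and Tgfbr2, which together pass the signal to SMAD proteins, were among the genes that varied least. Tgfbr1 had 10.81, 10.67 and 10.68 in BI livers, 10.96, 10.82 and 10.70 in insulin livers, and 10.77, 10.61 and 10.91 in untreated livers. Tgfbr2 had 10.82, 10.63 and 10.88 in BI livers, 11.22, 11.24 and 10.66 in insulin livers, and 10.65, 10.95 and 11.09 in untreated livers. The groups overlapped for both, and the 95% interval for Tgfbr1 in BI against untreated livers was -0.42 to 0.34. The ligand Tgfb2 averaged 5.65 ± 0.57, 5.47 ± 0.58 and 5.72 ± 0.82, and Thbs1, which activates latent TGF-beta, 5.62 ± 0.67, 5.93 ± 0.49 and 5.48 ± 0.25, in BI, insulin and untreated livers (SD, n = 3 each).

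**Figure D4:**
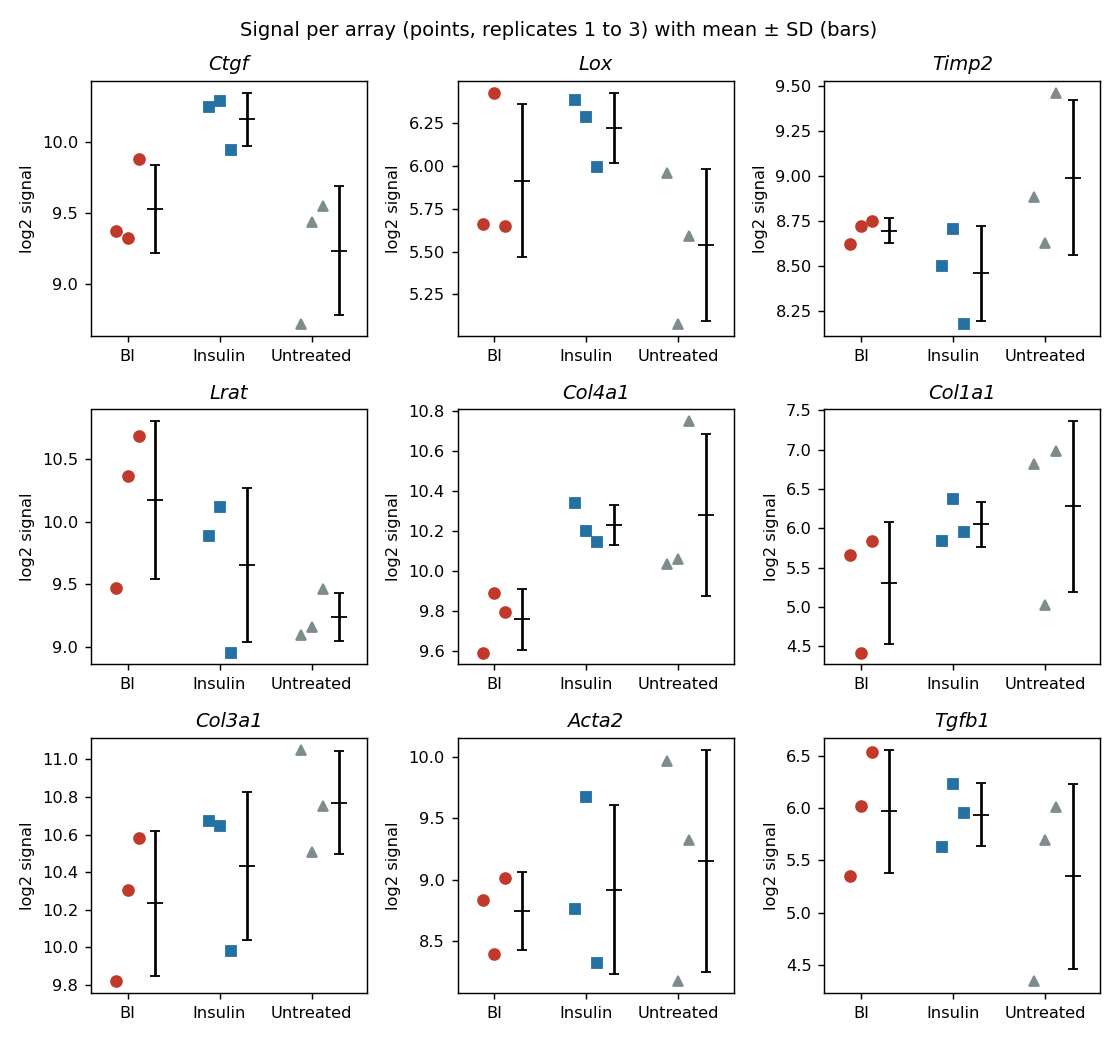
Log2 signal of 9 of the genes on each array (points in order of replicate number) with the group mean and SD (bars, n = 3), for BI, insulin and untreated livers; vertical scales differ and do not start at 0. Ctgf is higher on the 3 insulin arrays than on the other 6, and Col4a1 is lower on the 3 BI arrays than on the other 6.

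Matrix proteases and their inhibitors had small median differences, which cover genes that went in opposite directions. In insulin against untreated livers the 5 genes ran from -0.53 for Timp2 to 0.45 for Timp1. Their medians were -0.06 for BI against untreated livers, -0.05 for insulin against untreated livers and 0.01 for BI against insulin livers. Timp1, the inhibitor that usually marks active fibrosis, had 5.85, 5.32 and 6.20 in BI livers, 6.27, 6.84 and 5.68 in insulin livers, and 5.84, 5.06 and 6.55 in untreated livers. The groups overlapped, and BI livers differed from untreated livers by -0.03 ± 0.46 (95% interval -1.10 to 1.05), and by 0.21 without BI replicate 2. The mean Timp1 level, 5.96, lay below every array median. Timp2, which also takes part in switching on Mmp2, had 8.62, 8.72 and 8.75 in BI livers, 8.50, 8.70 and 8.17 in insulin livers, and 8.88, 8.62 and 9.46 in untreated livers. Insulin livers differed from untreated livers by -0.53 ± 0.25 (unadjusted p = 0.072, adjusted p = 0.9999), with insulin replicate 2 above untreated replicate 2. Of the 5 dimmer Timp2 probe sets, 2 gave negative and 3 positive differences in that comparison, between -0.40 and 0.13.

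Mmp14, a membrane-bound metalloproteinase that activates Mmp2, had 9.39, 9.09 and 9.27 in BI livers, 9.13, 9.28 and 9.32 in insulin livers, and 9.05, 9.41 and 9.67 in untreated livers. Its groups overlapped, with -0.14 ± 0.20 for insulin against untreated livers. A dimmer Mmp14 probe set (mean level 7.60) gave -0.69 ± 0.38 for BI and -0.50 ± 0.38 for insulin against untreated livers. The dimmest (mean level 4.98) gave 0.41 ± 0.73 and -0.29 ± 0.73. Mmp2, a gelatinase made by stellate cells, averaged 6.39 ± 0.05 in BI livers, 6.40 ± 0.12 in insulin livers and 6.45 ± 0.41 in untreated livers. Timp3, the matrix-bound inhibitor, averaged 8.53 ± 0.12 in BI livers, 8.50 ± 0.72 in insulin livers and 8.23 ± 0.37 in untreated livers (SD, n = 3 each). Dimmer Timp3 probe sets (mean levels 8.18 and 6.06) gave 0.56 ± 0.32 and 0.54 ± 0.83 for BI against untreated livers. For insulin against untreated livers they gave 0.60 ± 0.32 and 1.00 ± 0.83. The dimmest Timp3 probe set (mean level 5.02) gave -0.23 ± 0.67 and -0.50 ± 0.67 in these comparisons.

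Elastic fibre and crosslinking genes gave positive medians in both treated groups, which rest on untreated replicate 2. The median difference from untreated livers was 0.37 in BI livers and 0.31 in insulin livers, with 3 of 3 measured genes higher in each, and without that array the medians were -0.21 in BI livers and 0.02 in insulin livers. Lox, the enzyme that crosslinks collagen and elastin, had 5.66, 6.43 and 5.65 in BI livers, 6.39, 6.28 and 5.99 in insulin livers, and 5.96, 5.08 and 5.59 in untreated livers. The lowest insulin array was just above the highest untreated array, and the mean Lox level, 5.89, lay below every array median. Insulin livers differed from untreated livers by 0.68 ± 0.31 (1.60-fold, 95% interval -0.04 to 1.40, limma unadjusted p = 0.0618, adjusted p = 0.9999). A pair of dimmer Lox probe sets gave 0.51 ± 0.99 and 0.72 ± 0.73 for the same comparison. BI against untreated livers gave 0.37 ± 0.31, and 0.11 without BI replicate 2, while the dimmer probe sets gave -0.25 ± 0.99 and -0.39 ± 0.73.

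Loxl1, a relative of Lox needed for elastic fibre upkeep, averaged 5.85 ± 0.76 in BI livers, 5.58 ± 0.68 in insulin livers and 5.27 ± 1.78 in untreated livers. Untreated replicate 2, at 3.26, sets that wide SD, the other untreated arrays being at 5.96 and 6.60. Eln, elastin itself, averaged 6.85 ± 0.53, 7.07 ± 0.37 and 6.83 ± 0.47 in BI, insulin and untreated livers (SD, n = 3 each).

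Proteoglycans and matricellular proteins showed no difference between groups beyond the spread between arrays, with medians of -0.02, 0.04 and -0.03 for BI against untreated, insulin against untreated and BI against insulin livers. Dcn, decorin, a small proteoglycan that binds collagen and TGF-beta, had 12.63, 13.01 and 12.88 in BI livers, 12.89, 12.51 and 12.57 in insulin livers, and 12.06, 12.98 and 12.93 in untreated livers. Untreated replicate 1 was low and the other arrays lay together. The related Lum averaged 9.05 ± 0.40 in BI livers, 8.98 ± 0.70 in insulin livers and 9.18 ± 0.15 in untreated livers. Sparc, a collagen-binding protein, averaged 10.06 ± 0.21, 10.29 ± 0.09 and 10.21 ± 0.48, and Postn, periostin, 9.17 ± 0.63, 9.31 ± 0.28 and 9.08 ± 0.76, in BI, insulin and untreated livers (SD, n = 3 each).

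The 48 dimmer probe sets of these genes add a check on the brightest ones. None passed the test (lowest adjusted p 0.9991 in the limma fit). They were opposite in sign to the gene's brightest probe set in 18 of 48 cases for BI against untreated livers, 23 for insulin against untreated livers and 14 for BI against insulin livers. The mean of 36 of the 48 lay below the lowest array median. At an unadjusted p under 0.05, 2 of the 48 stood out in BI against untreated livers (Lrat and Pdgfra). Of all 45037 probe sets, 1152 did so on the higher and 864 on the lower side. In insulin against untreated livers 2 of the 48 did (Tgfb1 and Sparc), with 1182 higher and 832 lower among all probe sets. In BI against insulin livers 0 of the 48 did, with 947 higher and 874 lower among all probe sets. The Sparc one gave 1.17 ± 0.43 (limma unadjusted p = 0.0266, adjusted p = 0.9999), where the brightest Sparc probe set gave 0.08.

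Of 66 other matrix and fibrosis genes listed for comparison, 61 were measured and none passed the test in any comparison (limma, lowest adjusted p 0.9991). At an unadjusted p under 0.05 there were 0 in BI against untreated (3.9% of all genes), 2 in insulin against untreated (3.87%) and 1 in BI against insulin livers (3.44%). The medians of the 61 differences were 0.03, 0.01 and -0.07 in these comparisons. BI and untreated livers did not overlap for 7 of the 61 genes (3 higher and 4 lower, with 9.36% of all genes). BI and insulin livers did not overlap for 7 of the 61 (1 higher and 6 lower, with 9.88% of all genes). In BI against untreated livers the genes with the smallest p were the macrophage elastase Mmp12 (1.72 ± 0.88), Col5a3 (0.39 ± 0.24) and Col16a1 (0.32 ± 0.21) on the higher side. On the lower side they were the neutrophil collagenase Mmp8 (-0.80 ± 0.37), Timp4 (-1.77 ± 0.82) and the integrin chain Itgav (-0.29 ± 0.15). Signals of Mmp12 (1.61 to 5.03) and Timp4 (2.49 to 6.02) lay below every array median, so these large differences come from dim probe sets.

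In insulin against untreated livers, the gelatinase Mmp9 had 6.56, 7.26 and 7.62 on the insulin arrays and 5.79, 6.27 and 3.32 on the untreated arrays (2.02 ± 0.75, unadjusted p = 0.0294, adjusted p = 0.9999). Tnc, tenascin C, a matrix protein of wound repair, had 6.17, 5.84 and 5.63 in insulin livers and 4.39, 2.98 and 5.29 in untreated livers (1.67 ± 0.66, unadjusted p = 0.0379, adjusted p = 0.9999). The groups did not overlap for either gene, as for 4 of the 61 genes in this comparison (9.23% of all genes). The lowest untreated array of each of the 2 lay far below the other untreated arrays. Tnc was also dim, below the array's median on each untreated array. The next smallest p were for the basement membrane linker Nid1 (0.50 ± 0.31), and on the lower side Cyr61 (-0.46 ± 0.34), the lysyl hydroxylase Plod1 (-0.33 ± 0.26) and the TGF-beta pseudoreceptor Bambi (-0.39 ± 0.30).

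In BI against insulin livers, Col5a3, a chain of type V collagen, had 8.50, 8.83 and 9.25 in BI livers and 8.19, 8.33 and 8.25 in insulin livers (0.60 ± 0.24, unadjusted p = 0.0391, adjusted p = 0.9999). It was the reverse in sign of Col5a1 (-0.26 ± 0.26) and Col5a2 (-0.38 ± 0.31). Cyr61 (0.53 ± 0.34) and Bambi (0.42 ± 0.30) followed on the higher side, and Mmp8 (-0.76 ± 0.37), the growth factor Pdgfb (-0.67 ± 0.35) and Tnc (-1.19 ± 0.66) on the lower side.

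Markers of other liver cells varied across the same arrays. In BI against insulin livers, 26 of the 38 genes and 54.3% of all genes were lower. Of the cell type lists, 10 of 10 sinusoidal endothelial genes (median -0.33), 9 of 9 Kupffer cell genes (median -0.28) and 7 of 7 portal fibroblast and mesothelial genes (median -0.43) were lower. So were 4 of 5 cholangiocyte genes (median -0.20), 3 of 6 lymphocyte genes (median -0.03), 2 of 8 hepatocyte genes (median 0.03) and 1 of 5 vascular smooth muscle genes (median 0.22). Summed log2 levels of the endothelial list were 85.6 to 87.9 in BI livers and 87.0 to 93.7 in insulin livers. Those of the Kupffer cell list were 82.5 to 91.4 in BI livers and 88.2 to 91.4 in insulin livers, and those of the portal list 36.3 to 46.6 in BI livers and 40.9 to 46.0 in insulin livers. In BI against untreated livers, 6 of 7 portal genes were lower (median -0.39, with 49.9% of all genes lower), with sums of 36.3 to 46.6 in BI livers and 35.7 to 48.0 in untreated livers. In the same comparison 6 of 10 endothelial genes (median -0.11) and 5 of 9 Kupffer cell genes (median -0.02) were lower. Insulin against untreated livers gave 9 of 10 endothelial genes (median 0.26) and 7 of 9 Kupffer cell genes (median 0.28) higher. There 4 of 7 portal genes (median 0.15) and 53.7% of all genes were higher. No marker of these lists was at 0 on any array, and their part in the collagen values was not tested.

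**Figure D5:**
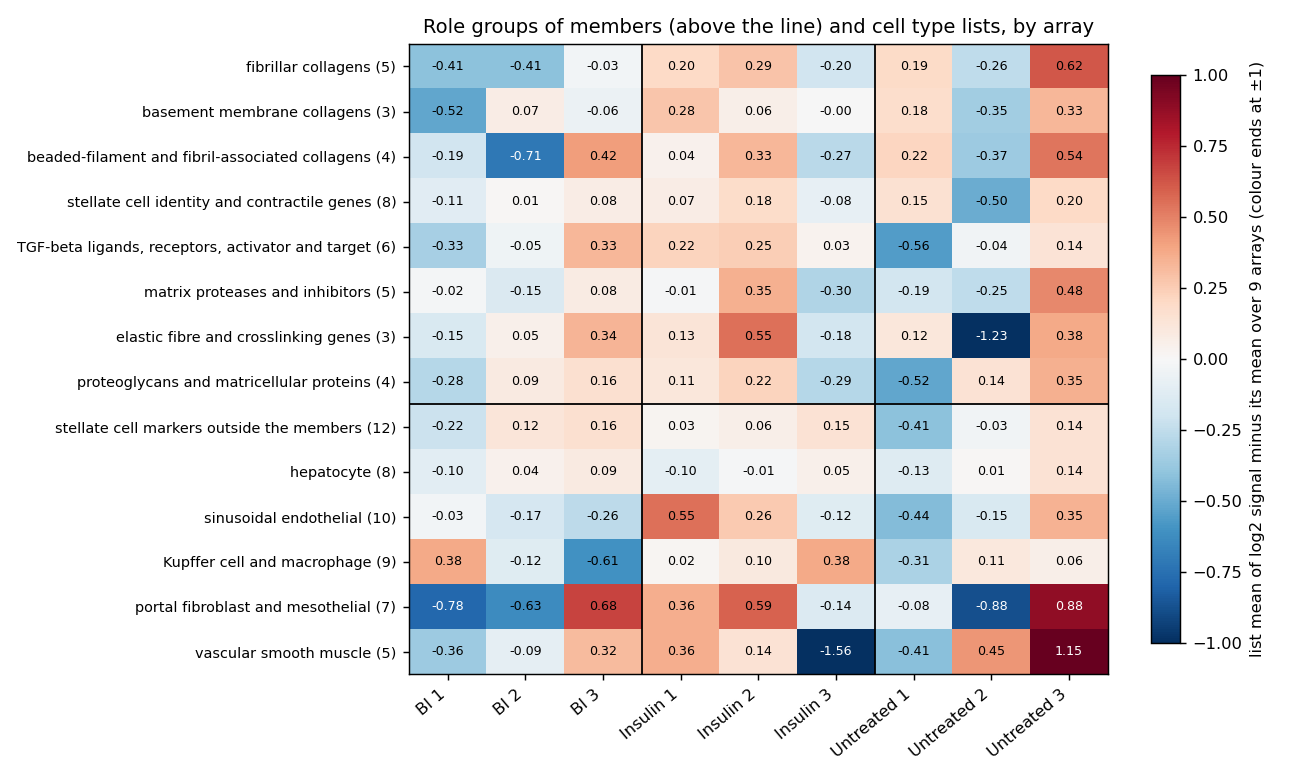
Mean log2 signal of each role group (above the line) and each cell type list (below it) on each array, minus that list's mean over the 9 arrays, in colour (which ends at 1 either way) and digits, with BI arrays at the left, insulin arrays in the middle and untreated arrays at the right; numbers of genes stand in brackets. Fibrillar collagens run between -0.41 and -0.03 on BI arrays, between -0.20 and 0.29 on insulin arrays and between -0.26 and 0.62 on untreated arrays.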

How the data were processed

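Total RNA from liver was hybridised as biotin-labelled cRNA, made with a 3' IVT kit, to one-colour arrays, per the labels' protocols. The authors deposited log2 signals for each probe set, already scaled: each array had a lowest value of 0 and a 2% trimmed mean linear signal of 500.004. The sources used here do not name the software, and no detection call was used. Of 45101 probe sets, 64 controls were left out and 45037 tested. Names were taken from the platform's 2016 annotation, in which 34945 probe sets had 1 symbol, 932 several and 9160 none; 34741 were matched by gene ID to current RefSeq names. Signals were ranked between probe sets only to pick a gene's brightest one and the genes shown, since signals of different probe sets do not measure relative RNA amounts.

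Groups and replicate numbers came from the sample titles. All 9 arrays entered one limma 3.58.1 fit in R 4.3.3 (lmFit and eBayes, group as the only factor, 6 residual degrees of freedom). Two-sided p-values were adjusted by Benjamini-Hochberg over all probe sets and a threshold of 0.05. Standard errors and 95% intervals come from that fit. For gene pairs, exact permutation tests were adjusted over 6 pairs, with a two-sided p as 2 times the smaller tail.

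Values on each array are given for the 3 genes of smallest p in each direction of each comparison, the 5 genes of highest mean level, and fixed lists of stellate cell markers and fibrosis readouts; Col6a1, Col6a2, Loxl1, Cyr61, Nes and the other matrix genes with an unadjusted p under 0.05 were added after their values were seen. Of the other matrix genes, the 3 of smallest p in each direction are named. The genes, lists and roles were chosen with earlier results of these data known. Same-numbered arrays did not vary together (correlation of deviations from group means -0.03 to 0.04 over 9 pairs, against -0.03 to 0.03 over 18 pairs of other numbers), so the main fit has no block. The other settings were a filter on low signal, quantile normalization, arrays set to one median, a variance trend with robust moderation, fits without the third group, averaged probe sets per gene, a replicate block, and each array left out in turn. The role group medians under these settings and the looser CArG form were added after seeing the data.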

Additional observations from a re-analysis of the deposited data

How the results depend on the processing

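None of the 38 genes passed the threshold in any comparison under any of the 16 other settings in which it was tested (lowest limma adjusted p 0.795). The filter on low signal kept 30 of the 38, and Col1a1, Timp1, Tgfb1 and Lox were among those it removed. Of 1800 recomputed differences, 136 changed sign where the reported difference was within 1 SE of 0, and 6 changed sign beyond 1 SE, each when the probe sets of a gene were averaged: Tgfb1 to -0.41, Timp2 to 0.14 and Lox to -0.090 in BI against untreated livers, Pdgfrb to -0.078 and Tgfb1 to -0.66 in insulin against untreated livers, and Tgfbr2 to 0.14 in BI against insulin livers. For each of these, the average included probe sets of opposite sign to the brightest one. The genes' median difference lay between -0.14 and 0.09 for BI against untreated livers, between -0.05 and 0.22 for insulin against untreated livers and between -0.28 and -0.09 for BI against insulin livers.

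Over all probe sets, BI against untreated livers had 5 past the threshold, 1 under the filter at a mean level of 6.04, 0 in a fit of the 2 groups alone, and 0 to 2 with an array left out. The same comparison had 6 with a variance trend and robust moderation, 5 with arrays set to one median and 4 after quantile normalization. BI against insulin livers had 0, with 1 under the filter and 0 to 1 with an array left out. With the replicate number as a block, 0 probe sets passed in BI against untreated livers; the numbers do not pair the arrays. Averaged probe sets took the Col6a1 with Col6a2 correlation to 0.628 (exact permutation, adjusted p = 0.100), and its range was 0.868 to 0.919 with an array left out. Dim probe sets and 3 arrays a group limit what can be seen.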
